A study of Mus musculus with 4 samples.

Results

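Immediate early genes are switched on within a short time of a signal at the cell surface, without new protein synthesis, and their RNAs are short-lived. In B cells the antigen receptor acts on them through the kinase ERK and the factor SRF, and through calcium and calcineurin. Described here are 10 of them: the zinc finger transcription factors Egr1, Egr2 and Egr3, their corepressor Nab2, the orphan nuclear receptors Nr4a1, Nr4a2 and Nr4a3, and the immediate early response genes Ier2, Ier3 and Ier5. Every probe whose gene name in the scanner files is one of the 10 was taken, which gave 13 probes of 39429. Of the 10 genes, 9 were bright enough to enter the comparison of 15969 genes, and Nr4a3 was not.

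Spleen B cells, taken by magnetic sorting (MACS), were stimulated for 3 days through the antigen receptor (anti-IgM, 10 µg/mL) and through CD40 (anti-CD40, also 10 µg/mL). Donors were C57BL/6 males (WT) and males lacking the atypical chemokine receptor gene Ackr4 (Ackr4ko), and how Ackr4 was disrupted is not given in the sources used here. The 2 experiments had different donors, aged 73 and 77 days (Ackr4ko and WT) in experiment 1 and 71 and 74 days in experiment 2. Each experiment has 1 array per genotype, so replicate 1 and replicate 2 of a genotype are experiments 1 and 2. No unstimulated culture was analysed here, so the values are levels on day 3 of stimulation and not inductions.

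The labels of the arrays conflict. The column for WT in the authors' deposited value table holds, in each experiment, the values of the scanner file labelled Ackr4ko, and the reverse holds for the column for Ackr4ko (r = 0.9986 to 1 for the crossed match over 16207 probes, against 0.9781 to 0.9861 for an array's own label). Ackr4 itself was too dim to check a label (0 arrays well above background for either of its probes). "Labelled Ackr4ko" and "labelled WT" below follow the scanner files, and every direction between genotypes turns round under the other assignment. Levels are log2 signal after the arrays were set to a common 75th percentile, and a probe is read across arrays, not against other probes.

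The arrays differed in quality. The share of probes well above background was 54.9% and 49.5% for Ackr4ko replicates 1 and 2, and 52.6% and 42.2% for WT replicates 1 and 2. WT replicate 2 had 6.24% of its spots marked as outliers, against 1.79% to 2.12% on the others. The B cell markers Cd79a, Cd79b, Ms4a1, Pax5, Cd22, Blnk and Ebf1 were well above background on all 4 arrays. The 4 markers of NK cells and, among 6 macrophage and monocyte markers, Cd14 and Lyz2 were on 0 arrays, while Csf1r, Mpeg1, Itgam and Adgre1 were on all 4.

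The promoters of the 3 NR4A genes and of Ier3 are printed because the NR4A genes shared 1 bright array, while Ier3 was the member whose groups of arrays did not overlap. RefSeq's table (GRCm38.p6) holds windows for 7 of the 10 genes. It holds none for Egr1, Egr3 and Ier2, whose promoters were not searched. The 250 bases before the start of each NR4A gene and of Ier3 are given 5′ to 3′ on the gene's strand. Capitals mark TGACG, the core of the element bound by CREB and ATF factors, on either strand (CGTCA on the other), GCGNGGGCG, the element bound by EGR factors, and the NF-kappaB site.
Nr4a1 (chr15:101266596-101266845, plus strand): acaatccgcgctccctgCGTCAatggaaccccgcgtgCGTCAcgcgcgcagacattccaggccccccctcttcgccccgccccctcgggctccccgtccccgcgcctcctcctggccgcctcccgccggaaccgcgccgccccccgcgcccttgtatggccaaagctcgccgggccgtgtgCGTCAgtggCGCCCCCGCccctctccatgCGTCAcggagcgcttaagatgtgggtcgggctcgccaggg
Nr4a2 (chr2:57124004-57124253, minus strand): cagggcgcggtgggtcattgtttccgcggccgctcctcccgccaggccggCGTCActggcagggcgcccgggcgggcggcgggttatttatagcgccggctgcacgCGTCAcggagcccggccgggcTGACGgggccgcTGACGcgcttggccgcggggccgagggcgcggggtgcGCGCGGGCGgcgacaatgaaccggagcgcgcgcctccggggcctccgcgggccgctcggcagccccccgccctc
Nr4a3 (chr4:48045055-48045304, plus strand): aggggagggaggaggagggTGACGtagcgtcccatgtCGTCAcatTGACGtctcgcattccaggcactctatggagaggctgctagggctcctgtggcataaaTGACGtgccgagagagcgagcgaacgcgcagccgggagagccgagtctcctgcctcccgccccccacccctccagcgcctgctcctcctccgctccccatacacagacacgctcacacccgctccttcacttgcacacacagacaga
Ier3 (chr17:35821463-35821712, plus strand): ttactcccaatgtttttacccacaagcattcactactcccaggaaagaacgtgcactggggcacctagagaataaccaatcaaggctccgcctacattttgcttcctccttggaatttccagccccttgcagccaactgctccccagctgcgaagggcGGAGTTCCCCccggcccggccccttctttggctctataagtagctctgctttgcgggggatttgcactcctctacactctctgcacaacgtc

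The letters TGACG occur 4 times in each of the 3 NR4A windows, 2 times in 3 of the 5 Egr2 windows (0 in the others) and 0 times in those of Ier3, Ier5 and Nab2. Of all 32851 windows of that length in the table, which include overlapping starts of the same gene, 17.8% hold it at least once, 3.90% at least 2 times and 0.137% at least 4 times. The EGR element was found in the windows of Nr4a1 and Nr4a2 (4.70% of all windows). The NF-kappaB site was found in that of Ier3 and in 1 of 5 windows of Egr2 (7.25%). AAAGGTCA, the element bound by NR4A factors (1.34%), TGANTCA, bound by AP-1 (6.75%), and TGACGTCA, the full CREB element (1.55%), were found in no window of these 7 genes. Of these 7 genes, which exclude Egr1, Egr3 and Ier2, only Egr2 had windows with the CArG box, to which SRF binds (1.47% of all). One of them, at chr10:67537792-67537821, lies beside a CGTCA, and both are in capitals here.
Egr2: tcagtCCATATATGGgcagcgaCGTCAcgg
These matches describe letters in a window and show no binding.

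Egr1 and Egr2 were lower on 1 array, WT replicate 2, than on the other 3. Egr1, read by a probe at 35024395 to 35024454 of chromosome 18 (mm9, as are all probe positions here), had 13.15 and 13.23 on the arrays labelled Ackr4ko, replicates 1 and 2, and 13.44 and 10.40 on those labelled WT. The other 3 arrays lay within 0.29 of each other, and WT replicate 2 minus WT replicate 1 was -3.04. The SD over the 4 spots of the Egr1 probe was 0.014 to 0.039 within an array. Egr2, at 67004798 to 67004857 of chromosome 10, had 13.31 and 13.82 in the Ackr4ko-labelled cultures of experiments 1 and 2, and 14.00 and 12.28 in the WT-labelled ones. Its lowest value was again WT replicate 2, and its highest was WT replicate 1. Egr3, read by 1 probe annotated to transcript variant 2, was dim. It had 5.00 and 5.76 in the Ackr4ko-labelled cultures of experiments 1 and 2, and 6.23 and 4.68 in the WT-labelled ones. On WT replicate 2 it was not well above background. The groups overlapped for all 3 genes. Their log2 differences, labelled Ackr4ko minus labelled WT, were 1.27 ± 0.80 (SE) for Egr1, 0.42 ± 0.54 for Egr2 and -0.07 ± 0.52 for Egr3, and none passed limma's test. The differences of Egr1 and Egr2 rest on WT replicate 2, without which they were -0.25 and -0.44. The sign for Egr3 depended on the scaling, with 0.56 after quantile normalization and 0.11 with the median of all probes as the scale. With its value on WT replicate 2 set to the lowest level well above background there, Egr3 gave -1.23 in experiment 1 and -0.08 in experiment 2, so no direction is established for it in experiment 2.

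Nab2 binds EGR factors and represses their targets. Its bright probe, for transcript variant 1 (chromosome 10, 127098009 to 127098068), had 11.41 and 11.75 in the Ackr4ko-labelled cultures of experiments 1 and 2, and 12.18 and 11.38 in the WT-labelled ones. Its other probe, for variant 2 (127101413 to 127101472), was dim, with 5.05 and 6.46 against 6.20 and 4.89, and not well above background on WT replicate 2. The highest value of the bright probe was WT replicate 1, and the groups overlapped. The difference was -0.20 ± 0.38 for the bright probe and 0.21 for the dim one. The latter rests on the array where that probe was not well above background, and with that value set to the array's lowest level well above background it was -0.26.

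The NR4A genes were highest on 1 array, Ackr4ko replicate 2. Nr4a1 (Nur77), whose level is widely used to report antigen receptor signalling, is read by a probe at 101105071 to 101105130 of chromosome 15. It had 12.83 and 15.74 in the Ackr4ko-labelled cultures of experiments 1 and 2, and 13.75 and 12.14 in the WT-labelled ones. The array labelled Ackr4ko was the dimmer of the pair in experiment 1 and the brighter in experiment 2. Nr4a2 (Nurr1) had 7.52 and 10.90 in the Ackr4ko-labelled cultures of experiments 1 and 2, and 7.10 and 7.66 in the WT-labelled ones, at 56960699 to 56960758 of chromosome 2. Ackr4ko replicate 2 stood above the other 3 arrays, and the groups overlapped. Its other probe, at 56959637 to 56959696, showed the same array on top, with 5.83 and 9.24 against 6.18 and 5.88, the last not well above background. In experiment 1 the 2 probes differed in sign (0.43 and -0.35). Nr4a3 (Nor1) was well above background on 1 array only, again Ackr4ko replicate 2, at 6.02, with 2.76 on Ackr4ko replicate 1 and 3.59 and 4.64 on the arrays labelled WT. The only Nr4a3 probe is annotated to transcript variant 1. It spans 3187 bases of chromosome 4 (48080690 to 48083876), more than a probe's length, as a probe across an exon junction does. With 1 array above background, Nr4a3 was not tested and no fold is given. With WT replicate 2 set to its lowest level well above background, the log2 difference in experiment 2 was 0.18. Only a small excess over that array is thus established.

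The log2 differences were 1.33 ± 0.86 for Nr4a1 and 1.83 ± 0.88 for Nr4a2, and neither passed limma's test. Without Ackr4ko replicate 2 they were -0.12 and 0.15, so both rest on that array. Within experiment 2 alone, with 1 array against 1 and no test, Nr4a1 was 12.1-fold and Nr4a2 9.44-fold brighter on the array labelled Ackr4ko. In experiment 1 the corresponding ratios were 0.526 and 1.34. From the highest down, the difference of Nr4a1 ranked 13 of 15969 genes in experiment 2 and 15653 in experiment 1. In bulk RNA, a change in the number of expressing cells and a change in RNA per cell cannot be told apart.

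**Figure D1:**
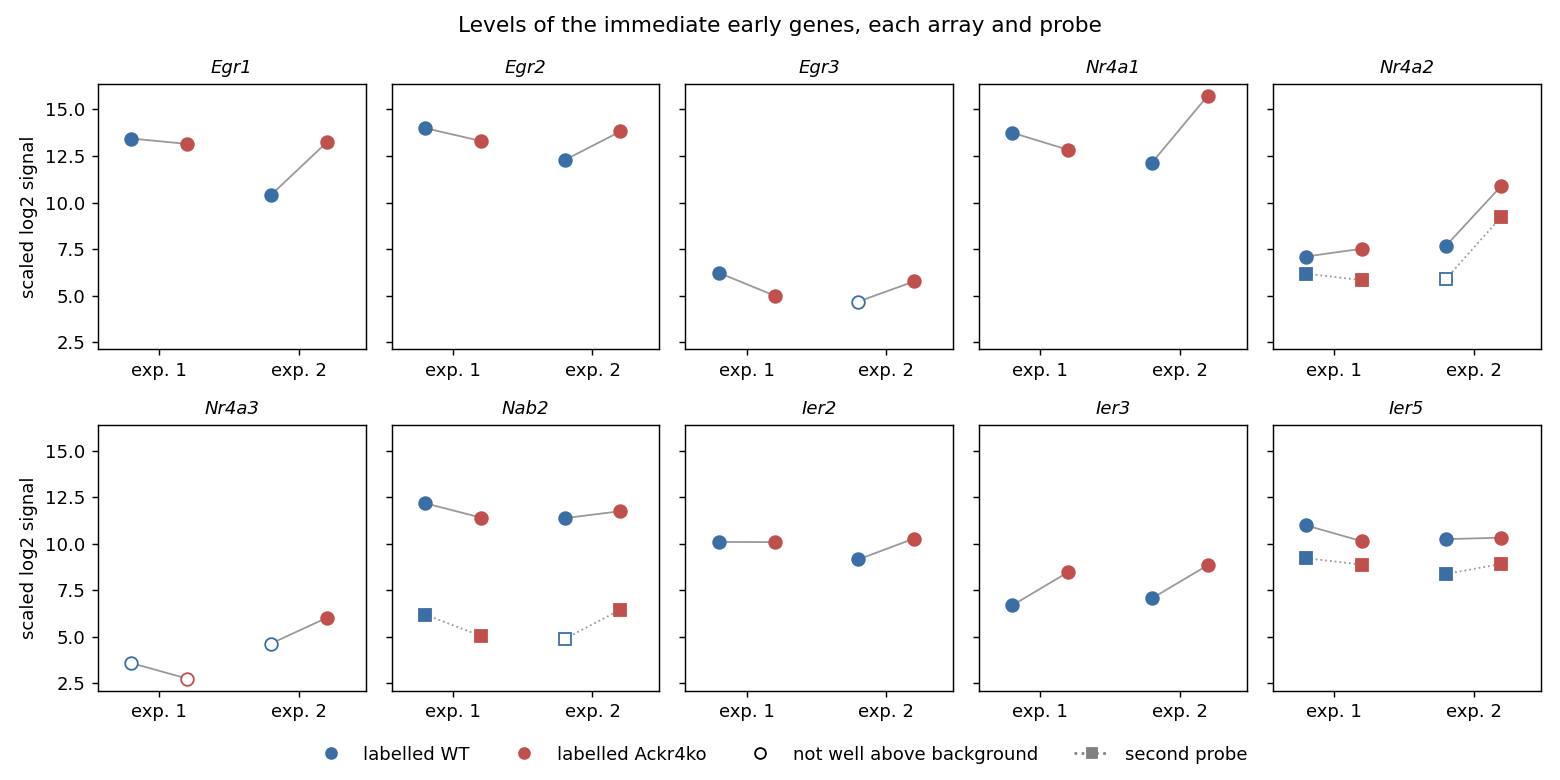
Scaled log2 signal of each of the 10 genes on the 4 arrays, with the arrays of an experiment joined by a line; circles are the probe used for the gene, squares its second probe, and open symbols are not well above background. The drop of Egr1 to 10.40 on WT replicate 2, the peak of Nr4a1 at 15.74 on Ackr4ko replicate 2 and the parallel lines of Ier3 can be seen; panels are read across arrays and not against each other.

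Ier3 (IEX-1), a regulator of cell survival that NF-kappaB and other stress pathways induce, was the member whose groups did not overlap. It had 8.48 and 8.85 in the Ackr4ko-labelled cultures of experiments 1 and 2, and 6.70 and 7.07 in the WT-labelled ones, read at 35959528 to 35959587 of chromosome 17. Both arrays labelled Ackr4ko were above both labelled WT, as they were for 19.0% of all tested genes, with 10.0% the other way round. The difference was 1.78 in each experiment, or 3.44-fold. A difference of at least 2-fold in both experiments in that direction was seen in 1 of the 9 tested members and in 1.28% of all tested genes (0.513% in the other). The difference was 1.78 ± 0.34 (SE, n = 2 per group), with an unadjusted p of 0.000641 in limma and an adjusted p of 0.236, so it missed the threshold. Ier3 ranked 38th of 15969 genes by p. Its groups stayed apart, and at least 2-fold apart in both experiments, under 11 of 11 ways of processing all 4 arrays. Among these were the main processing and the authors' value table (with its labels the other way round). Ier3 has 1 probe, well above background on all 4 arrays. The filters on dim probes, the kept outlier spots and the choice of probe thus left it at 1.78, and were no separate check. With 1 array left out the difference was 1.60 to 1.97, and its lowest value under the other settings of the scanner files was 1.23, with normexp background correction.

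Ier2 and Ier5 differed less. Ier2, a nuclear protein of early growth responses, had 10.09 and 10.28 in the Ackr4ko-labelled cultures of experiments 1 and 2, and 10.10 and 9.16 in the WT-labelled ones (chromosome 8, 87186214 to 87186273). As for Egr1, the odd array was WT replicate 2. The difference was 0.56 ± 0.39, and 0.09 without that array. Ier5, which acts on the heat shock factor HSF1, had 10.14 and 10.33 in the Ackr4ko-labelled cultures of experiments 1 and 2, and 10.99 and 10.25 in the WT-labelled ones (chromosome 1, 156945765 to 156945824). Its highest value was WT replicate 1, as for Nab2 and Egr2. A second Ier5 probe (156943530 to 156943589) had 8.88 and 8.92 against 9.23 and 8.38. The 2 probes gave differences of -0.39 ± 0.37 and 0.09, so no direction can be given. The groups did not overlap under 2 of those 11 ways for Ier2 and under 3 for Ier5.

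The comparison across all genes asked which of these genes differ between the genotypes. Of the 9 members tested, 0 were called at a limma adjusted p under 0.05, against 0.0125% of all tested genes (2 of 15969). Ier3 alone had an unadjusted p under 0.05, as 4.58% of all tested genes did. The median difference of the 9 members was 0.56, against 0.08 over all tested genes. With 2 arrays a group, an exact two-sided permutation test cannot give a p below 0.333. The p-values measure the spread between these 4 cultures only.

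The experiment can be used as a block, since the arrays of an experiment are paired. Egr1 (adjusted p = 0.0115 in limma), Nr4a1 (0.0061), Nr4a2 (1.68e-05) and Ier3 (3.33e-05) were then called, all higher on the arrays labelled Ackr4ko, where 2.04% of all tested genes were called in that direction and 1.30% in the other. That fit has 1 residual degree of freedom per gene and gave each of the 9 members the same standard error, 0.35, so the unlike differences of Egr1 and Nr4a1 in the 2 experiments do not enter it. After quantile normalization the blocked limma fit called 0 members and 0 genes in all, with adjusted p of 0.338 for Ier3, 0.578 for Nr4a2, 0.675 for Egr1 and 0.759 for Nr4a1.

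The sizes and signs of the differences varied between the experiments. In experiment 1 the array labelled Ackr4ko was at least 2-fold brighter for 1 of 9 members (Ier3; 3.08% of all tested genes) and at least 2-fold dimmer for 1 (Egr3; 1.56%). In experiment 2 it was at least 2-fold brighter for 7 of 9 (6.07%) and at least 2-fold dimmer for 0 (3.98%). Egr3 is among the 7 only through a value not well above background, and its bounded difference was -0.08. The members' median was -0.70 in experiment 1 and 1.54 in experiment 2, against -0.04 and 0.23 over all tested genes. Nr4a2 (by its brighter probe) and Ier3 were higher on the array labelled Ackr4ko in both experiments (33.0% of all tested genes), 0 were lower in both (20.9%), and 7 had opposite signs, as 46.1% of all tested genes did. Ier2 in experiment 1 (-0.01) and Ier5 in experiment 2 (0.08) lay close to 0. Relative to the medians of all tested genes, Ier2 gave 0.04 and 0.88 and Ier5 -0.81 and -0.16. On that scale 3 members were higher in both and 1 was lower in both, against 4555 of 15969 tested genes each way. Opposite signs were left for 5 members (42.9% of all tested genes). Those 5 were Egr1 (-0.25 and 2.60), Egr2 (-0.65 and 1.31), Egr3 (-1.19 and 0.85), Nr4a1 (-0.88 and 3.36) and Nab2 (-0.72 and 0.13). With 1 array per genotype and experiment, the difference between the experiments has no test.

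**Figure D2:**
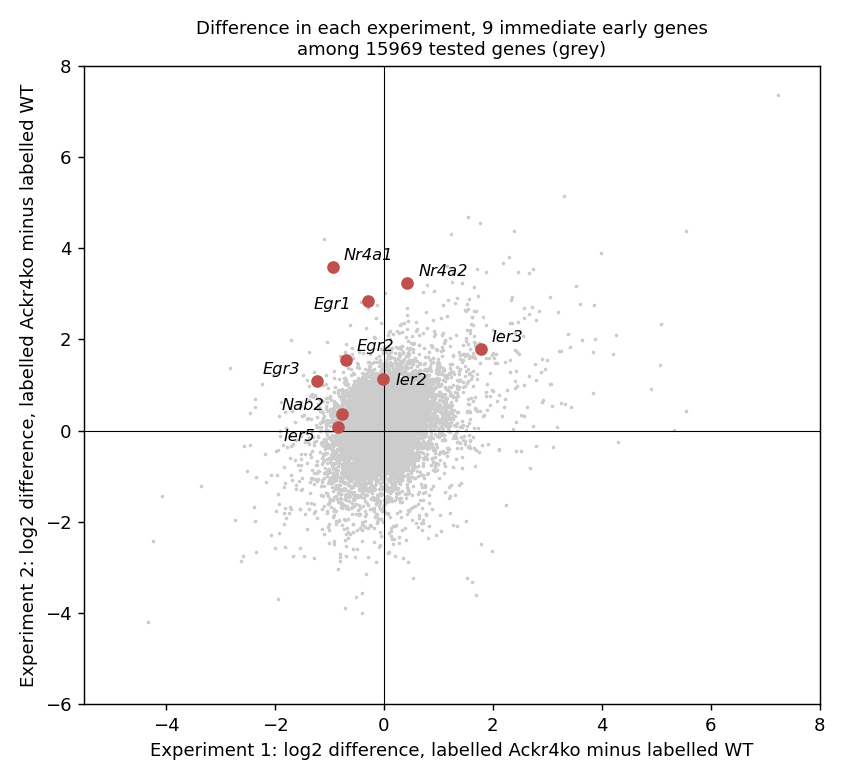
Log2 difference, array labelled Ackr4ko minus array labelled WT, in experiment 1 (horizontal) and experiment 2 (vertical) for the 9 tested members in red and all 15969 tested genes in grey. Nr4a1 lies at -0.93 and 3.59, Egr1 at -0.29 and 2.83, and Ier3 at 1.78 on both axes.

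The experiments were also compared within each label. Experiment 2 minus experiment 1, within the WT label, was -3.04 for Egr1, -1.72 for Egr2, -1.61 for Nr4a1 and -0.93 for Ier2. Within the Ackr4ko label the same genes gave 0.08, 0.52, 2.91 and 0.19. Nr4a2 was 3.37 higher in experiment 2 on the arrays labelled Ackr4ko and 0.56 higher on those labelled WT. Egr1, Egr2 and Ier2 thus differed mainly between the WT arrays, Nr4a2 between the Ackr4ko arrays and Nr4a1 between both. Ier3 differed by 0.37 in each genotype.

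**Figure D3:**
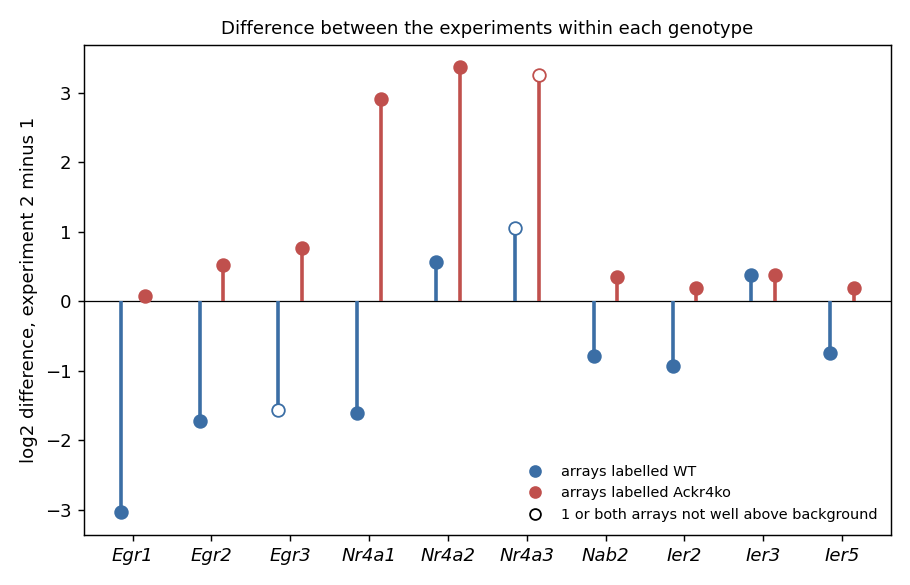
Log2 difference between experiment 2 and experiment 1 for each of the 10 genes, within the arrays labelled WT (blue) and those labelled Ackr4ko (red); open symbols have 1 or both arrays not well above background. Egr1 gave -3.04 on the WT arrays, and Nr4a2 was 3.37 higher on the Ackr4ko arrays.

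These arrays also stood apart in other ways. WT replicate 2 had the fewest probes above background and the most outlier spots, and its lowest level well above background was 5.84, against 3.82 to 4.60 on the others. Egr1, Egr2, Nr4a1 and Ier2 lay far above that level, and Egr3 lay below it. The summed signal of the 7 dendritic cell markers was 75400 on Ackr4ko replicate 2. It was 62800 on Ackr4ko replicate 1, 64500 on WT replicate 1 and 62900 on WT replicate 2. Flt3, Siglech and Zbtb46 were well above background on all 4 arrays, and Itgax and Xcr1 on none. The 6 T cell markers summed to 4540 on Ackr4ko replicate 2, 4340 on WT replicate 2 and 3160 and 3360 on the arrays of experiment 1. Among them Cd3d, Cd3e, Cd3g and Cd4 were well above background on all 4 arrays, and Cd8a on none. The 6 macrophage and monocyte markers summed to 40900 and 33400 in the Ackr4ko-labelled cultures of experiments 1 and 2, and 51200 and 55000 in the WT-labelled ones. The 6 plasma cell markers summed to 26200 on Ackr4ko replicate 2 and 21700 to 23400 on the others. Irf4, Jchain, Sdc1 and Xbp1 were well above background on all 4 arrays, and Tnfrsf17 on none. The 5 stroma and endothelium markers summed to 269 on Ackr4ko replicate 2 and 612 to 871 on the others. The part of these in the results was not tested.

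**Figure D4:**
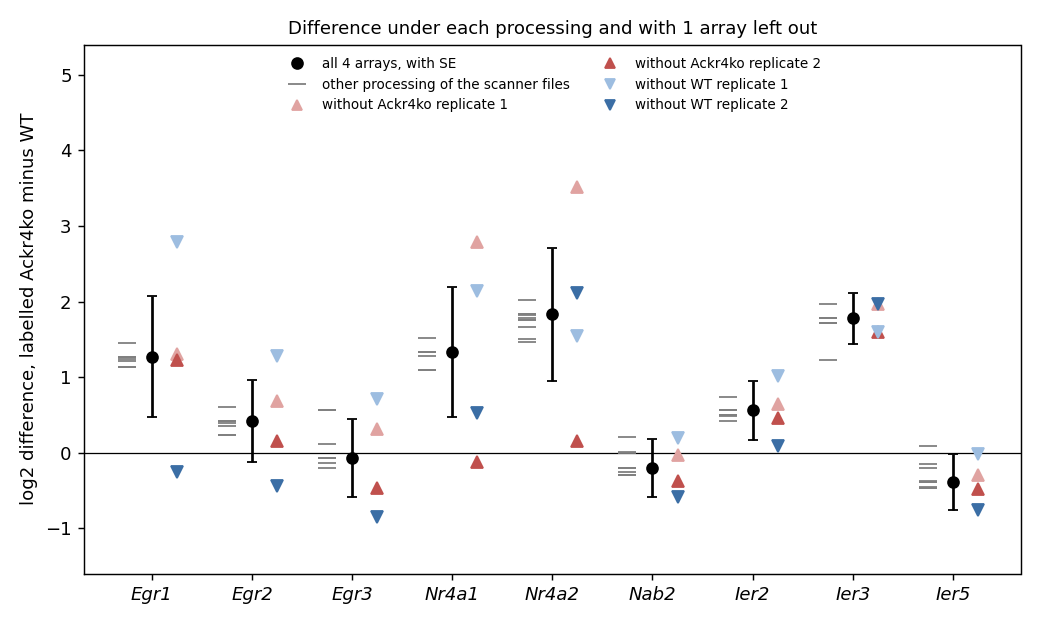
Log2 difference, labelled Ackr4ko minus labelled WT, of the 9 tested members: black circles with standard errors use all 4 arrays, grey dashes are other ways of processing the scanner files, and triangles leave out 1 array. Leaving out WT replicate 2 takes Egr1 to -0.25 and leaving out Ackr4ko replicate 2 takes Nr4a1 to -0.12, while Ier3 keeps between 1.60 and 1.97.

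Other genes of the same signalling routes were read in lists. Of 62 related genes, 59 were tested and 0 were called by limma without the block. An unadjusted p under 0.05 was found for 11 of the 59, and for 4.58% of all tested genes. The block called 10 with the Ackr4ko label brighter (2.04% of all tested genes) and 1 with it dimmer (1.30%). Atf3, Fosl2 and Spry1, which are among those 10 and among the 11, were well above background on 0 arrays labelled WT. They entered the test through the Ackr4ko label alone, which fixed their direction. Neither count can thus be weighed against the share of all tested genes. Nab1, the other NAB corepressor, gave 0.10 and 0.12 in experiments 1 and 2, and Ier5l 0.30 and 0.06. Egr4 was too dim to be tested.

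Among 17 tested immediate early factors outside the 10 genes, the median was 0.10 in experiment 1 and 0.96 in experiment 2. Under the Ackr4ko label 8 were brighter in each experiment (33.0% of all tested genes) and 3 dimmer (20.9%). The AP-1 subunit Jun had 11.75 and 12.11 in the Ackr4ko-labelled cultures of experiments 1 and 2, and 10.17 and 9.91 in the WT-labelled ones, a difference of 1.89 ± 0.34 (limma adjusted p = 0.236). The small MAF factor Maff gave 1.46 ± 0.34 (limma adjusted p = 0.379), with 1 WT array above background. Both differed the same way in both experiments, as Ier3 did. The block called 5 of the 17 higher, namely Jun, Maff, Fos, Atf3 and Fosl2, which were picked out after their values were seen. Atf3 and Fosl2 were well above background on 0 arrays labelled WT and entered the test through the Ackr4ko label alone. Their direction was thus fixed, and both are also among the 8 brighter in each experiment. Neither the count of 8 nor that of 5 can be weighed against the shares of all tested genes (33.0% and 2.04%).

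The 8 tested ERK feedback genes had a median of 0.05 in experiment 1 and 0.84 in experiment 2. Spry1, a Sprouty inhibitor of growth factor signalling, was well above background on both arrays labelled Ackr4ko (5.49 and 7.04) and on 0 labelled WT, which makes it at least 2.28-fold brighter. Spry1 entered the test through the Ackr4ko label alone, and its limma adjusted p was 0.619. That bound sets each dim value to the lowest level well above background on its array, where that is higher. The MAP kinase phosphatase Dusp1 gave 0.99 ± 0.38, with 1.21 and 0.77 in experiments 1 and 2. The block called 2 of the 8 higher, Spry1 and Dusp4 (-0.05 and 2.36 in experiments 1 and 2). Since the direction of Spry1 was fixed, the count of 2 cannot be weighed against the share of all tested genes (2.04%). The block did not call Dusp1 (limma adjusted p = 0.10).

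The 22 genes of the ERK, SRF and calcineurin route, all tested, had a median of -0.04, with -0.17 in experiment 1 and 0.00 in experiment 2. Averaged over the experiments, their differences ranged from -0.76 to 0.53. The SRF partner Elk4 gave -0.70 ± 0.38 and the calcineurin regulator Rcan1, itself a target of calcineurin signalling, gave -0.65 ± 0.37, and these had the smallest p of the list. The block called 0 of the 22, and 0 had an unadjusted p under 0.05 without it (4.58% of all tested genes).

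Genes linked to EGR or NR4A factors in lymphocytes were 10, all tested, with a median of 0.50, and 0.36 and 0.76 in experiments 1 and 2. The repressor Bhlhe40 had 12.40 and 12.34 in the Ackr4ko-labelled cultures of experiments 1 and 2, and 11.40 and 10.77 in the WT-labelled ones, a difference of 1.29 ± 0.35 (limma adjusted p = 0.583). Cd5, a surface inhibitor of antigen receptor signalling, was lower, with 10.67 and 10.13 against 11.44 and 11.64 and a difference of -1.15 ± 0.35 (limma adjusted p = 0.656). The groups did not overlap for either gene, and both were named for having the smallest p of the list. Of all tested genes, 19.0% had both arrays labelled Ackr4ko above both labelled WT, and 10.0% below. The block called 3 of the 10 higher (2.04% of all tested genes) and 1 lower (1.30%).

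**Figure D5:**
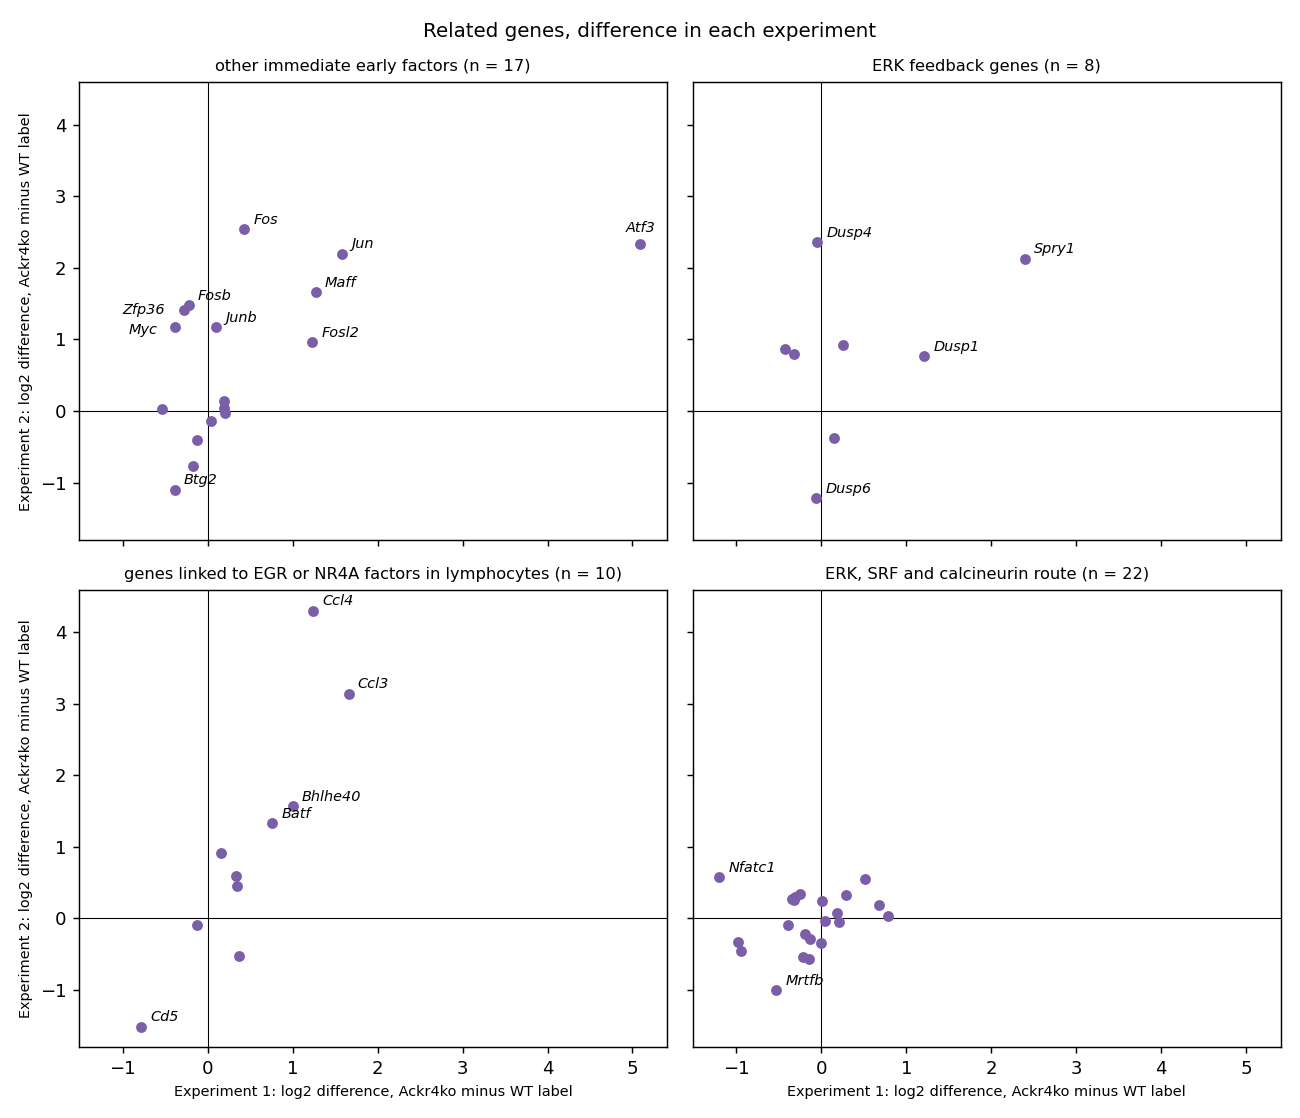
Log2 difference, array labelled Ackr4ko minus array labelled WT, in experiment 1 (horizontal) and experiment 2 (vertical) for the tested genes of 4 lists, with names where either difference is at least 2-fold. Jun and Maff lie near the diagonal. The 22 genes of the ERK, SRF and calcineurin route lie between -1.20 (Nfatc1) and 0.78 (Mapk3), both in experiment 1. Averaged over the experiments, their differences ran from -0.76 to 0.53, with a median of -0.04.

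The mean profile of the 9 members, each centred on its own mean, was -0.12 and 0.85 in the Ackr4ko-labelled cultures of experiments 1 and 2, and 0.16 and -0.89 in the WT-labelled ones. The 5 named genes closest to it over the 4 arrays, by root mean square distance, were Stat5a (0.088), N4bp1 (0.11), Aen (0.12), Fosb (0.12) and Prrg4 (0.13). Stat5a, which carries cytokine signals, had -0.15 and 0.76 against 0.14 and -0.74. With 4 arrays many genes can match a profile, and the distances describe these arrays only.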

How the data were processed

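Total RNA (50 ng) of 4 B cell cultures was labelled with Cy3 and read on Agilent 1-colour arrays, per the labels' protocols. The deposited scanner files give spot intensity from Agilent Feature Extraction 10.7.3.1, per the file headers, with probe positions on mm9. Slide and scan day were shared by the 4 arrays, so neither is a batch. Normalized intensity was also deposited by the authors as a table, whose method is not given in the sources used here, and it served as an alternative only. Samples were taken as separate cultures of different donors, per the series description.

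From the processed signal, control and outlier spots were left out, log2 values were set to a common 75th percentile, and the spots of a probe (usually 4) were averaged. The scanner's detection flag came from the files. Testing needed 50% or more of a probe's spots to be well above background on 2 or more arrays, and a gene was read by its brightest probe. No spot was saturated (0). Groups were compared in limma 3.58.1 (R 4.3.3) by a moderated two-sided test without a block, at a p of 0.05 after Benjamini-Hochberg adjustment. Same-experiment arrays are paired by the series description, and their deviations correlated at 0.42, so the blocked fit is given where it changes a call. On simulated arrays of 15969 genes with 200 changed, the fit recovered 0.4% of 2-fold, 38.6% of 4-fold and 91.4% of 8-fold changes, with on average 0.9 false among 115 calls. The blocked fit recovered 9.6%, 92.0% and 100% of them, with 19.8 false among 171 calls. The simulated noise was normal and equal on all 4 arrays, while WT replicate 2 had the most outlier spots (6.24%). These rates may therefore not hold for the real arrays. The number of arrays limits the precision.

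The members and lists were chosen with earlier results of these data known. All 10 members are named; from each list, its called genes, or the 2 of smallest p where it had none; and the 5 genes closest to the members' mean profile. Lists are described by counts and medians. Alternatives covered quantile, median and normexp processing, the filter on dim probes, outlier spots, the choice of probe, the block, 1 array left out and the value table.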

Additional observations from a re-analysis of the deposited data

Results flagged for a closer look

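For 7 members the array labelled Ackr4ko was brighter than the array labelled WT in 1 experiment and dimmer in the other. The log2 differences were -0.29 in experiment 1 and 2.83 in experiment 2 for Egr1, -0.70 and 1.54 for Egr2, -1.23 and 1.09 for Egr3, and -0.93 and 3.59 for Nr4a1. They were -0.76 and 0.37 for Nab2, -0.01 and 1.12 for Ier2, and -0.85 and 0.08 for Ier5. The value for Egr3 in experiment 2 rests on an array where its probe was not well above background, and with that array at its lowest level well above background it was -0.08, so its change of sign is not established. Ier2 and Ier5 each lay close to 0 in 1 experiment, and relative to the medians of all tested genes they had the same sign in both. The difference between the experiments was not tested, since each has 1 array per genotype. It was 4.52 for Nr4a1, a size that 0.0564% of all tested genes reached, and 3.13 for Egr1 (0.213%), while 8.25% of genes differed at least as much as Ier2 and 14.0% at least as much as Ier5.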

How the results depend on the processing

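Under other processing of the 2 genes called in all, quantile normalization gave 1, the median of all probes as the scale 188, normexp 19, no filter 0, detection on all 4 arrays 0, each probe on its own 5, the block 532, the block with quantile normalization (added after seeing the data) 0, the authors' values 1, and leaving out 1 array 1 to 123. The median scale shifts the median of all genes to 0.27, against 0.08. Members called numbered 2 with the median scale (Nr4a2, 2.02, and Ier3, 1.97), 4 with the block (unchanged differences of 1.27 for Egr1, 1.33 for Nr4a1, 1.83 for Nr4a2 and 1.78 for Ier3) and 0 to 1 with 1 array left out (Egr1, limma adjusted p = 0.0193, without WT replicate 1, which leaves WT replicate 2 alone, assumed to vary like the other group). Members whose groups did not overlap numbered 3 under quantile normalization and in the value table, and 2 under either median scale. The scale by the median of the tested genes was added after seeing the data. The share of all tested genes is given for the main processing only (19.0% and 10.0%), so these counts are not set against one. Related genes called numbered 5 (median scale), 1 (normexp), 11 (block) and 0 to 3 (1 array left out, 3 without WT replicate 2).

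Reversed signs were 0.56 (quantile, with or without the block) and 0.11 (median scale) for Egr3, 0.01 (mean of probes) and 0.21 (second probe, dim on WT replicate 2) for Nab2, and 0.09 (second probe) for Ier5. With 1 array left out the ranges were -0.25 to 2.79 for Egr1, -0.44 to 1.28 for Egr2, -0.85 to 0.71 for Egr3, -0.12 to 2.79 for Nr4a1, 0.15 to 3.52 for Nr4a2 and -0.59 to 0.20 for Nab2. The value table under its own labels gave -1.12 for Egr1, -0.23 for Egr2, -1.09 for Nr4a1, -1.73 for Nr4a2, 0.27 for Nab2, -0.51 for Ier2, -1.70 for Ier3 and 0.47 for Ier5. The causes were not tested, other than the exchanged labels of the value table. Signal over background limits Egr3 and Nr4a3 most.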
